A study of Mus musculus with 10 samples.

Results

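LARP7 is an RNA-binding protein of the 7SK ribonucleoprotein. In 2 mouse heart models with a knockout of its gene, the ATM and DNA damage checkpoint genes were followed. They are 10 genes chosen by symbol: the kinase genes Atm, Atr and Prkdc, the checkpoint kinase genes Chek1 and Chek2, the mediator gene Trp53bp1, the break-sensor genes Mre11a, Rad50 and Nbn, and Parp1. Of these, 6 are listed among the 15498 genes of the embryonic table and all 10 among the 15989 genes of the adult table. The embryonic groups were whole hearts at E15.5 from wild-type (Larp7+/+) and conventional knockout (Larp7-/-) embryos, 3 samples each. The adult groups were apex tissue of 4-month-old mice, 2 samples of controls with floxed alleles (Larp7f/f) and 2 of knockouts in which Cre under the cardiomyocyte promoter of Myh6 acts on the same alleles (Myh6Cre;Larp7f/f). All were C57BL/6. No adult group carries Cre without floxed Larp7, so Cre and the deletion cannot be told apart there, and cells of the apex outside the Cre line keep the gene. The labels do not state whether replicates are different mice. The p-values below therefore reflect the spread between samples, pooled in large part over genes, and this spread may be technical.

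ATM, ATR and the DNA-dependent protein kinase, encoded by Prkdc, belong to one family of large kinases that start the response to damaged DNA. ATM is recruited to double-strand breaks by the complex of MRE11, RAD50 and NBN and can also be activated by oxidation, ATR responds to exposed single-stranded DNA at stalled forks, and the DNA-dependent protein kinase drives end joining. They phosphorylate CHK2, CHK1 and 53BP1, and PARP1 marks single-strand breaks with poly(ADP-ribose). Heart muscle cells leave the cell cycle after birth, and ATM signaling in the heart has been studied mainly in connection with oxidative damage. Activation of these proteins is by phosphorylation and recruitment, which RNA levels do not measure.

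Promoter sequence is shown for the kinase gene Atm, for Chek1, at a value of 1 in every adult sample, and for Trp53bp1, whose adult groups did not overlap. RefSeq entries (GRCm38.p6) were found for 7 of the 10 genes. Capitals mark matches to 4 motifs: the box with the letters CCAAT, the box bound by Sp family factors with the letters GGGCGG, the palindromic site of the nuclear respiratory factor NRF1, and the core of an E2F site with the letters GGCGGGAA. Of these, the Sp box and the E2F core can share letters. Each was searched on both strands in windows of 250 bases before to 50 after each start.
Atm, minus strand, chr9:53536745-53536921: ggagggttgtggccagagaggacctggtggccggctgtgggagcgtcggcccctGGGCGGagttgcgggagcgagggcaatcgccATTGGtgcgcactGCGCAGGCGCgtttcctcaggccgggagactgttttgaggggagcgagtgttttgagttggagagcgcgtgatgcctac
Atm, minus strand, chr9:53536725-53536754: tgatgcctacGCGCAAGCGCagtcgtgcgg
Trp53bp1, minus strand, chr2:121271408-121271657: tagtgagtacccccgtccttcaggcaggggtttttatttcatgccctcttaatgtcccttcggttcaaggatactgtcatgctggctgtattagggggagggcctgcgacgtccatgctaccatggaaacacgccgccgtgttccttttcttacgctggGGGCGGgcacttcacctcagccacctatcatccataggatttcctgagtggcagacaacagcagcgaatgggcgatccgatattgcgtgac
Chek1, minus strand, chr9:36726609-36726638: cagcatgacgcaagcaggttttGGCGGGAA
Atm held 2 matches to the NRF1 motif, which 4.6% of all 32851 promoter windows hold, and none of the other 6 genes with a window had one. Chek1 held the single match to the E2F core, which 2.19% of all windows hold. This match begins at 42 relative to the start. Counted from the RefSeq start, the stretch shown for Chek1, from 20 to 49, thus lies after the start, and the other stretches shown lie before it. The GENCODE gene coordinates given below place the starts of Atm (53536740) and Chek1 (36727065) further upstream. By these the shorter Atm stretch spans the start, and the Chek1 stretch lies further inside the gene. The Sp box was found in 5 of 7 genes against 35.7% of all windows, and the CCAAT box in 3 of 7 against 37.4%. A match describes the letters only. No measurement of binding belongs to these data.

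The embryonic table used here does not list 4 of the genes: Atm, Atr, Chek1 and Mre11a. All 4 lie on chromosome 9 (mm10): Mre11a at 14784654 to 14837123 on the plus strand, Chek1 at 36708482 to 36727065 on the minus strand, Atm at 53439149 to 53536740 on the minus strand and Atr at 95857597 to 95951781 on the plus strand. The other 6 lie on chromosomes 16 (Prkdc), 5 (Chek2), 2 (Trp53bp1), 11 (Rad50), 4 (Nbn) and 1 (Parp1). The E15.5 table lists genes unevenly by chromosome. Of the adult-table genes whose mean reached 5 and with a known chromosome, 263 of 581 on chromosome 9 (45.27%) are also listed at E15.5. On chromosomes 9, 10 and 12 to 19 together the share was 32.78% (1310 of 3996), and on the other 10 chromosomes it was 93.19% (5800 of 6224), with no chromosome between 45.27% and 90.8%. Among the checkpoint genes and the repair genes described below, 13 of 41 on the sparsely listed chromosomes and 50 of 52 on the others have an embryonic value. The embryonic values sum to between 998498 and 1001508 per sample over the genes listed, so each is a share of that smaller set. The absence of Atm, Atr, Chek1 and Mre11a at E15.5 is thus an absence from the list used here, and says nothing of their level.

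**Figure D1:**
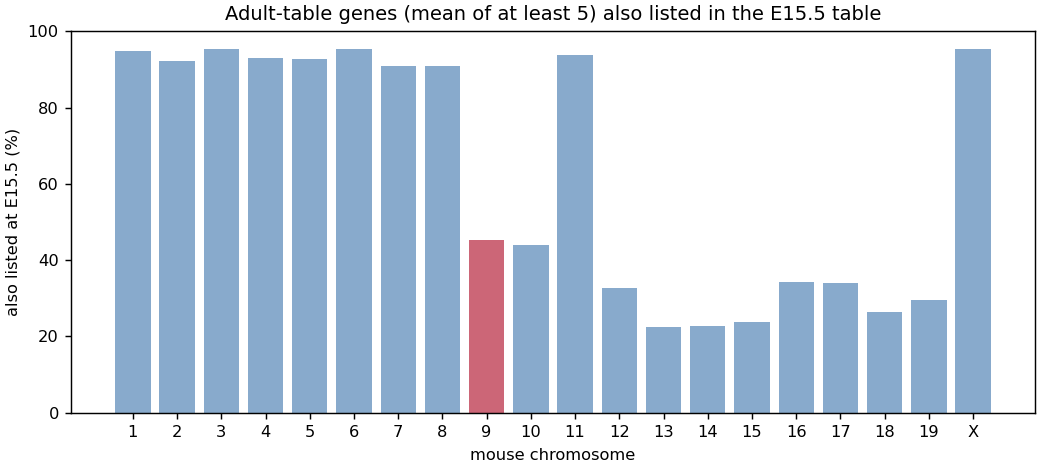
Share of adult-table genes (mean of at least 5) that the E15.5 table also lists, in percent on the vertical axis, by mouse chromosome. Chromosome 9, which holds Atm, Atr, Chek1 and Mre11a, is drawn in red at 45.27%, and 10 chromosomes stand at 90.8% or more.

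Every value below is a per-million value that the authors rounded to a whole number. Depth is unknown, and no source used here says whether the values are per transcript length, so levels are compared between conditions and never between genes. For nearly all genes, a control value and the knockout value that carries its number sum to a constant, so that a low control sample and a high knockout sample of one number are 1 observation, and the SDs of the 2 groups are nearly equal. In the 6 embryonic and 10 adult checkpoint genes these sums differed by at most 2. Larp7 itself had 96, 88 and 103 in the wild-type embryos and 45, 54 and 40 in the knockouts. The difference was -1.04 on the log2 scale (SE 0.17, limma adjusted p = 0.00159), or 0.487-fold. Larp7 RNA was thus still counted in the embryonic knockouts, and these data hold no measure of the protein. In the adult Larp7 had 26 and 28 in the controls and 26 and 24 in the knockouts, which gives no check of the adult labels. The heart label was checked with cardiomyocyte markers: Tnnt2, cardiac troponin T, lay between 3373 and 4838 in embryos and between 6776 and 7346 in adults. Actc1 ranged from 6416 to 8997 and from 12524 to 13154.

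At E15.5 the question was whether knockout of Larp7 in the embryo changed the checkpoint genes that are listed there. None of the 6 was called (0 of 6, limma, adjusted p under 0.05, and 0 at an unadjusted p under 0.05), where 0.632% of the 13609 tested genes were called (0.529% higher, 0.103% lower) and 13.9% had an unadjusted p under 0.05. All 6 passed the filter on low values. The prior of the test had 27.54 degrees of freedom for these genes, beside 2 from each gene's own samples. Each embryonic SE thus rests mostly on spread pooled over genes of similar level. Their changes lay between -0.03 and 0.22 on the log2 scale with a median of 0.09, beside 0.11 over all tested genes, and the groups of all 6 overlapped or touched, where 19.3% of tested genes were higher without overlap and 8.75% lower.

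Among the kinases, Prkdc stood at 18, 17 and 19 in wild-type embryos and at 18, 20 and 17 in knockouts. The 2 groups covered nearly the same range. The log2 change was 0.02 with a 95% interval from -0.40 to 0.44. Chek2, the kinase that carries the ATM signal to the cell cycle, had 13, 12 and 12 in the wild type and 12, 14 and 14 in the knockout, a log2 change of 0.10 (95% interval -0.36 to 0.57). At these levels a difference of 1 unit is close to the step of rounding.

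Trp53bp1, whose protein 53BP1 gathers at broken chromatin and favors end joining, had 100, 86 and 90 in the wild type and 99, 114 and 110 in the knockout. Knockout replicates 2 and 3 lay above every wild-type value and knockout replicate 1 lay 1 below the highest of them. The means were 92 ± 7.21 and 107.7 ± 7.77 (SD, n = 3), a difference of 0.22 on the log2 scale (SE 0.16, limma adjusted p = 0.553). Trp53bp1 (chromosome 2, 121193281 to 121271407, minus strand) shares 2130 bases, or 15.04% of its annotated exon bases, with Tubgcp4 on the opposite strand, and no source used here says whether the counting used strand. Tubgcp4 differed by 0.17 in embryos and by 0.36 in adults on the log2 scale, neither called.

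From the break-sensing complex, Rad50 and Nbn are listed at E15.5. Rad50, its ATPase, had 44, 46 and 41 in the wild type and 45, 44 and 49 in the knockout, a log2 change of 0.07 (95% interval -0.26 to 0.41). Nbn, the subunit that contacts ATM, had 38, 36 and 32 in the wild type and 38, 41 and 44 in the knockout. Its groups touched at 38, and the difference was 0.21 on the log2 scale (SE 0.17, limma adjusted p = 0.608). Leaving out 1 sample moved Nbn to between 0.0914 and 0.315 and Trp53bp1 to between 0.136 and 0.345. The replicate block was kept, so the same-numbered sample of the other group also dropped out of the comparison. Parp1 had 194, 178 and 200 in the wild type and 184, 199 and 178 in the knockout, both groups reaching down to 178. Its log2 change was -0.03, with an interval that excludes a fall below 0.778-fold and a rise above 1.24-fold under this test.

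**Figure D2:**
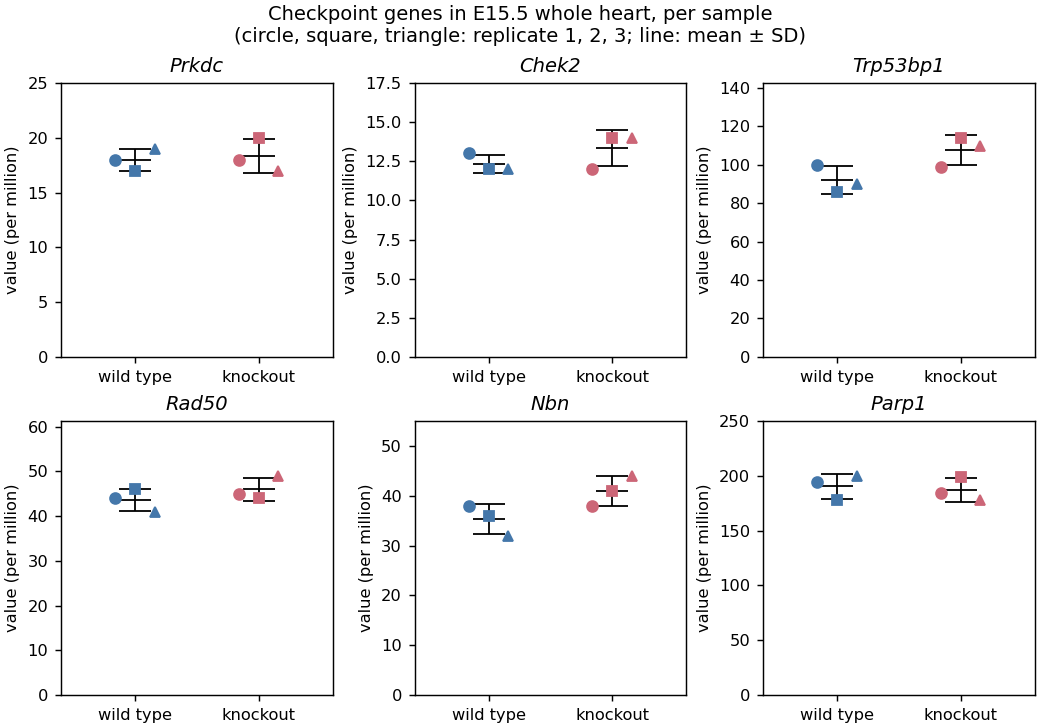
Per-million values (vertical axes, from 0) of the 6 listed checkpoint genes in the 3 wild-type and 3 knockout hearts at E15.5, with mean ± SD. In each panel the groups overlap or touch; Trp53bp1 has the largest difference, 92 against 107.7.

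In the adult apex, where Atm is listed, the question was whether deletion of Larp7 through Myh6-Cre changed the same genes. None of the 10 was called (0 of 10, limma, adjusted p under 0.05), where 3.29% of the 14835 tested genes were called (2.34% higher, 0.95% lower). At an unadjusted p under 0.05 there was 1, Trp53bp1, beside 12.4% of all tested genes. The changes of the 10 genes lay between -0.16 and 0.39 with a median of 0.03, beside 0.08 over all tested genes. All 10 passed the filter on low values. The prior of the test had infinite degrees of freedom for the checkpoint genes, so each adult SE rests on spread pooled over genes of similar level and not on the gene's own samples. In simulated data such pooling called unchanged genes more often than the threshold allows, and an adult call is less certain than its adjusted p says.

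Atm had 6 and 6 in the controls and 6 and 7 in the knockouts. The groups touched at 6 and differ by a single unit in 1 sample. The difference was 0.10 on the log2 scale (SE 0.29, limma adjusted p = 0.976), and the 95% interval ran from 0.719-fold to 1.59-fold. Atr had 8 in all 4 samples, with an interval from 0.701-fold to 1.43-fold. For Atm, rounding alone would allow a true ratio of the printed means anywhere from 0.923 to 1.27.

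Chek1, the kinase that acts below ATR in S and G2 phase, had a value of 1 in all 4 adult samples. A value of 1 stands for anything from 0.5 to 1.5, so that equal printed values allow a ratio from 0.333 to 3. A change in Chek1 was therefore not detectable in these values. Chek2 had 4 and 4 in the controls and 4 and 3 in the knockouts, a log2 change of -0.16 (95% interval -0.86 to 0.54).

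The largest adult differences, all toward the knockout, were in 3 genes: Trp53bp1, Rad50 and Prkdc. Trp53bp1 had 17 and 21 in the controls and 26 and 23 in the knockouts, without overlap, a difference of 0.36 on the log2 scale (SE 0.18, limma adjusted p = 0.394). Rad50 had 9 and 13 against 16 and 13, a difference of 0.38 on the log2 scale (SE 0.22, limma adjusted p = 0.487). Prkdc had 6 and 9 against 11 and 9, a difference of 0.39 on the log2 scale (SE 0.25, limma adjusted p = 0.615). In all 3 genes control replicate 1 was the lowest sample and knockout replicate 1 the highest, which under the constant sums is a single observation. The replicate 2 samples stood at 21 and 23, 13 and 13, and 9 and 9. Without control replicate 2, and with no replicate block, Trp53bp1 had a log2 change of 0.50 and Rad50 of 0.63. Such a fit leaves 1 sample in a group, so only the changes are given. Without control replicate 1 the same fit gave 0.21 for Trp53bp1, 0.14 for Rad50 and 0.13 for Prkdc, and Prkdc reached 0.65 without control replicate 2. Without any adult sample other than control replicate 2, Trp53bp1 lay between 0.21 and 0.44 and Rad50 between 0.14 and 0.52.

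The other members of the break-sensing complex showed small differences. Mre11a, the nuclease, had 9 and 10 in the controls and 10 and 10 in the knockouts, a log2 change of 0.07 (95% interval -0.40 to 0.54). Nbn had 25 and 25 against 24 and 24. Its groups did not overlap, but they lay 1 unit apart, and the difference was -0.06 on the log2 scale (SE 0.17, limma adjusted p = 0.978). Over all tested adult genes 29.3% were higher and 12.8% lower without overlap, and among the 10 checkpoint genes these were 1, Trp53bp1, and 1, Nbn. Parp1 had 52 and 56 in the controls and 56 and 50 in the knockouts, a log2 change of -0.03 (95% interval 0.799-fold to 1.2-fold).

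**Figure D3:**
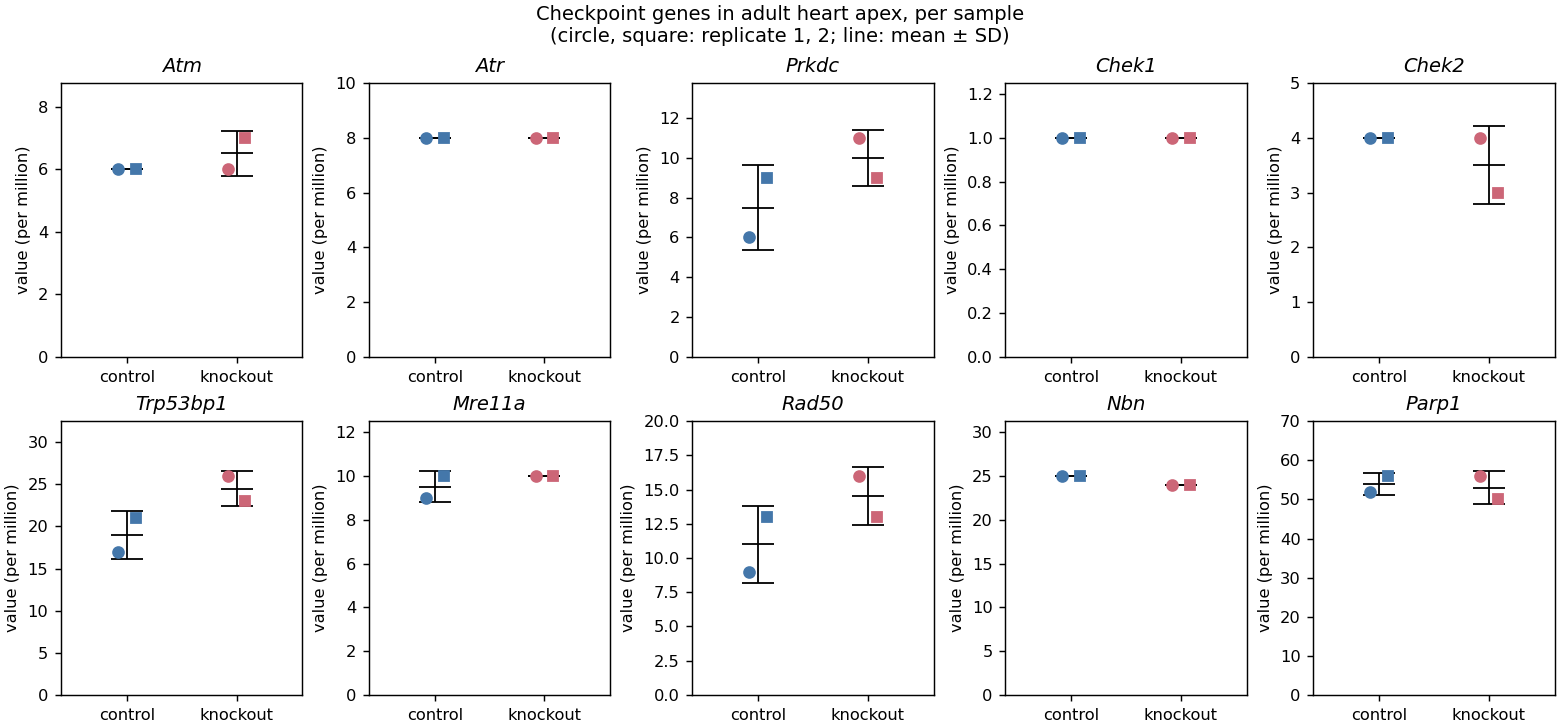
Per-million values (vertical axes, from 0) of the 10 checkpoint genes in the 2 control and 2 knockout apex samples, with mean ± SD. Atr and Chek1 have the same value in all 4 samples, Nbn differs by 1 unit, and in Prkdc, Trp53bp1 and Rad50 control replicate 1 (circle) is the lowest.

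The authors' deposited table gives log2 changes for these genes that are also near 0 or small. For Atm the authors' deposited table has 0.05 with an unadjusted p of 0.961, for Trp53bp1 in the adult 0.30 with 0.621, and for Trp53bp1 at E15.5 0.16 with an adjusted p of 0.829. The lowest unadjusted p for any checkpoint gene in the authors' deposited table was 0.459 (Trp53bp1, E15.5).

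The change at E15.5 was set against the change in the adult for the 6 genes listed in both tables. The difference of the changes, adult minus E15.5, was 0.37 (SE 0.30) for Prkdc, 0.31 (SE 0.27) for Rad50, 0.13 (SE 0.22) for Trp53bp1 and 0.00 (SE 0.20) for Parp1. It was -0.26 (SE 0.31) for Chek2 and -0.27 (SE 0.21) for Nbn. None of the 6 was called (0 of 6, limma, lowest adjusted p = 0.761 among them, and 0 at an unadjusted p under 0.05). Over the 9757 genes tested this way 0% were called and 8.35% (815) had an unadjusted p under 0.05. Larp7 had a difference of 0.93 (SE 0.23, adjusted p = 0.363, limma), called only in the fits with no replicate block.

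**Figure D4:**
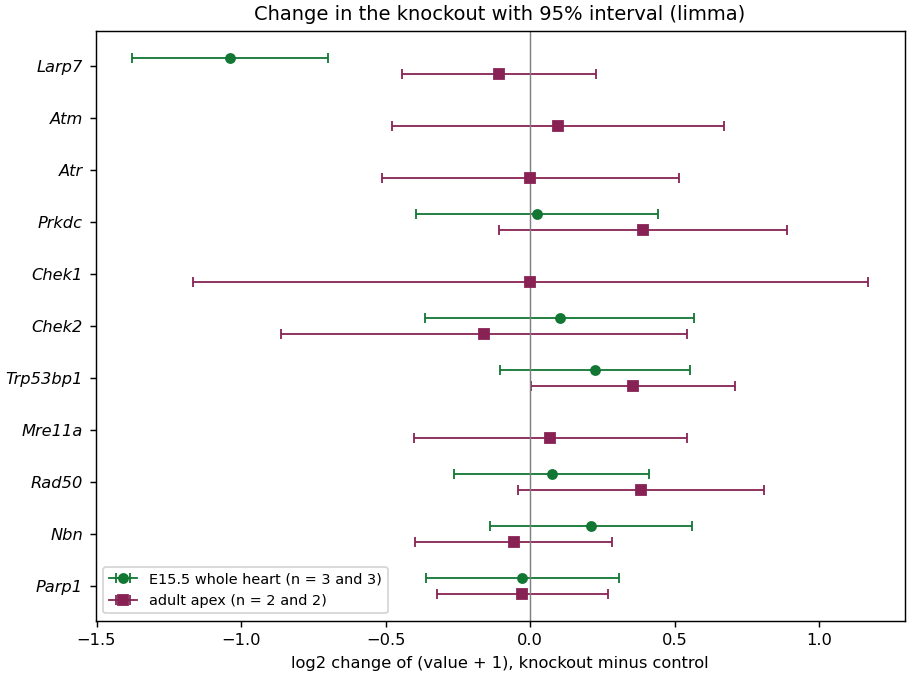
Log2 change of (value + 1), knockout minus control (horizontal axis), with the 95% interval of limma, for Larp7 and the 10 checkpoint genes at E15.5 (circles) and in the adult apex (squares). The embryonic Larp7 interval lies below 0, the adult Trp53bp1 interval starts at 0.00, and all other intervals span 0.

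The levels in control hearts are given side by side only, since the tables were normalized separately and list different sets of genes. Trp53bp1 had a mean of 92 ± 7.21 (SD, n = 3) in the wild-type embryos and 19 ± 2.83 (SD, n = 2) in the adult controls. Parp1 had 190.7 ± 11.4 and 54 ± 2.83, and Rad50 43.7 ± 2.52 and 11 ± 2.83. Prkdc had 18 ± 1 and 7.50 ± 2.12, Chek2 12.3 ± 0.58 and 4 ± 0, and Nbn 35.3 ± 3.06 and 25 ± 0. On the log2 scale the adult level was lower by between 0.48 (Nbn) and 2.22 (Trp53bp1), and the median over the 5984 genes whose mean reached 8 in both control groups fell by 0.89. Among the 6, only Nbn had a smaller difference than this median. Prkdc and Chek2, with adult control means under 8, are not among the genes behind the median. The separate normalization enters all of these differences.

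The rest of the damage response was described with 87 genes in 6 lists: sensors and mediators of the checkpoint, its effectors, end joining, homologous recombination, repair of single-strand breaks and bases, and related kinases with the factors that assemble them. At E15.5, 60 are listed and were tested. None was called (0 of 60, limma, where 0.632% of all tested genes were called), and 3 had an unadjusted p under 0.05, Rpa3, Tti1 and E2f1. Of the 60, 33 had a positive and 25 a negative change and 2 had none, with a median of 0.02. Over all 13609 tested genes 8226 had a positive and 4500 a negative change and 883 had none. In the adult 83 are listed and were tested, 1 was called as higher and 0 as lower (1.2%, beside 3.29% of all tested genes), and 7 had an unadjusted p under 0.05. Of these 83, 61 had a positive and 17 a negative change and 5 had none. Their median was 0.13, beside 0.08 over all tested genes. Over all 14835 tested genes 8592 had a positive and 4237 a negative change and 2006 had none. The sign counts of each list below stand beside these counts over all tested genes.

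The sensors and mediators act at damaged sites together with the kinases. They had 13 of 17 negative changes at E15.5 (median -0.08) and 7 of 26 in the adult (median 0.08). Over all tested genes 4500 of 13609 and 4237 of 14835 were negative. At E15.5 the groups of 6 of the 17 were lower and of 2 higher without overlap, beside 8.75% and 19.3% of all tested genes. In the adult 0 of 26 were lower and 9 higher without overlap, beside 12.8% and 29.3%. Rpa3, the small subunit of the single-strand binding protein RPA, had 14, 17 and 19 in the wild type and 12, 10 and 8 in the knockout (log2 -0.69, SE 0.24, adjusted p = 0.173, limma). Rnf168, the ubiquitin ligase that prepares chromatin for 53BP1, had 40, 39 and 46 against 35, 37 and 30. Atmin, a cofactor of ATM, had 48, 44 and 47 against 56, 60 and 58 (log2 0.32, SE 0.16, adjusted p = 0.374, limma). Hus1, part of the clamp that activates ATR, had 24, 26 and 22 against 28, 26 and 30. In the adult Topbp1, the activator of ATR, had 11 and 15 in the controls and 20 and 16 in the knockouts (log2 0.45, SE 0.20, adjusted p = 0.272, limma). Mdc1, which binds phosphorylated histone H2AX, had 15 and 16 against 20 and 18. Paxip1 (19 and 21 against 19 and 18) and Rpa2 (11 and 12 against 11 and 10) had the most negative changes of this list in the adult at a mean of at least 8.

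Among the effectors, Cdkn1a rose in the adult knockout. It encodes p21, the inhibitor of cyclin-dependent kinases downstream of p53, and is not listed at E15.5. Its values were 48 and 44 in the controls and 88 and 92 in the knockouts, without overlap, with means of 46 ± 2.83 and 90 ± 2.83 (SD, n = 2, log2 0.95, SE 0.15, adjusted p = 6.41e-08, limma). Without the rounding variance its limma adjusted p was 0.298 and it was no longer called. The authors' deposited table gives 0.91 on the log2 scale for Cdkn1a (unadjusted p 0.013). All 10 tested effectors had a positive adult change (median 0.26), beside 8592 of all 14835 tested genes, and only Cdkn1a was called. Cdk2 had 8 and 10 against 12 and 10. At E15.5, 4 of 6 effectors were positive (median 0.06): Trp53, which encodes p53, had 66, 72 and 72 in the wild type and 80, 76 and 75 in the knockout, and Cdc25b had 69, 60 and 56 against 59, 68 and 73. E2f1, a driver of S-phase genes, had 43, 46 and 56 against 42, 38 and 29 (log2 -0.41, SE 0.18, adjusted p = 0.3, limma), and Ppm1d, the phosphatase that ends the checkpoint signal, had 26, 32 and 24 against 26, 19 and 28.

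Marker lists of other cells and of dividing cells were measured in the same adult samples, where 8592 of all 14835 tested genes had a positive change. Of 15 proliferation genes 14 had a positive adult change (median 0.50) and Mki67 (1 and 5 against 11 and 8) and Top2a (2 and 5 against 12 and 9) were called. Their summed value was 59 to 79 in the controls and 102 to 121 in the knockouts. Of 8 fibroblast markers 7 were positive, with sums of 1185 to 1500 against 2270 to 2587 and 0 called (limma, 2 at an unadjusted p under 0.05). Of 9 macrophage markers 8 were positive, with sums of 654 to 658 against 767 to 770 and 0 called (limma, 3 at an unadjusted p under 0.05). All 8 endothelial markers had a negative change, none with an unadjusted p under 0.05 or called by limma, with sums of 823 to 852 against 759 to 789. T and B cell markers summed to 9 to 12 against 15 to 19, with Cd3e and Cd79a among those not listed. Erythroid markers summed to 24 to 58 against 53 to 126, smooth muscle and pericyte markers to 1162 to 1171 against 1083 to 1093, and cardiomyocyte markers to 63793 to 65121 against 60839 to 62170. Of 10 cardiomyocyte markers 4 had a positive and 6 a negative change, and 1 was called: Myh7, a myosin of slow and fetal muscle, was higher, at 270 and 468 against 1090 and 892 (log2 1.47, SE 0.14, limma adjusted p = 3.29e-16). The part of these cells in the higher Cdkn1a was not tested, and in bulk tissue fewer cells of a type and less RNA per cell cannot be told apart. At E15.5 the proliferation list had 8 of 14 positive changes (median 0.01), with sums of 3112 to 3545 against 3162 to 3594, while 5 of 6 cardiomyocyte markers had a negative change, with sums of 19836 to 23629 against 15181 to 18973 and 0 called (limma, 2 at an unadjusted p under 0.05). Of 5 fibroblast markers 4 were positive, with sums of 3683 to 4601 against 4561 to 5476, and Pdgfra was called as higher (71, 72 and 69 against 115, 115 and 118, limma adjusted p = 0.0296). Rgs5, a pericyte marker, was called as lower (83, 76 and 80 against 39, 47 and 42, limma adjusted p = 0.00694). Of the 3 smooth muscle and pericyte markers tested, 2 went the other way, Abcc9 (log2 0.28) and Pdgfrb (log2 0.32), neither called. The sums of this list were 289 to 341 against 315 to 366.

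The end-joining genes were mixed, with 3 of 9 positive at E15.5 (median -0.0011) and 7 of 11 in the adult (median 0.13). At E15.5 Aptx had 43, 37 and 47 in the wild type and 38, 44 and 35 in the knockout. Xrcc4, a partner of ligase IV, had 20, 16 and 20 against 18, 22 and 18, and Aplf had 12, 11 and 13 against 13, 14 and 12. In the adult Xrcc6, the Ku70 subunit that recruits the Prkdc kinase to ends, had 22 and 26 in the controls and 32 and 29 in the knockouts (log2 0.34, SE 0.17, adjusted p = 0.393, limma). Aptx had 18 and 16 against 14 and 16, and Xrcc4 8 and 8 against 9 and 10.

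Of the homologous recombination genes, 10 of 14 were positive at E15.5 (median 0.06) and 12 of 16 in the adult (median 0.27), with 0 called in either model (limma, 0 at an unadjusted p under 0.05 in either). Xrcc3, which acts in strand exchange, had 15, 12 and 14 in the wild-type embryos and 17, 21 and 18 in the knockouts, without overlap (log2 0.42, SE 0.22, adjusted p = 0.378, limma). Brca2, a mediator of recombination, had 29, 27 and 28 against 32, 35 and 34. Rad51c had 18 in all 3 wild-type hearts against 16, 17 and 16, and Brca1 had 30, 26 and 28 against 24, 28 and 26. In the adult Rad51d had 10 and 10 against 12 and 12, and the nuclease gene Mus81 20 and 18 against 17 and 18. The summed adult value of this list was 69 to 70 in the controls and 76 to 80 in the knockouts, a sum over 16 genes, so that most of them stand at a few units.

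In the repair of single-strand breaks and bases, the pathway that PARP1 serves, 6 of 8 genes were positive at E15.5 (median 0.10) and 8 of 14 in the adult (median 0.11). Ung, the uracil DNA glycosylase, had 24 and 24 in the adult controls and 16 and 16 in the knockouts (log2 -0.56, SE 0.18, adjusted p = 0.0682, limma), just outside the threshold. It had 57, 54 and 68 in the wild-type embryos against 51, 54 and 41, a difference of -0.29 on the log2 scale (SE 0.17, limma adjusted p = 0.456), with groups that touched at 54. Ung was called in the adult without the replicate block (limma adjusted p = 0.0345), without rounding variance (0.028) and with neither (0.000146). Its replicates were equal within each adult group, so without rounding variance its own samples show no spread. It was also called with a mean of at least 10 (limma adjusted p = 0.034) and with median-of-ratios scaling (0.022). It was not called with pseudocounts of 0.5 or 5, with no filter or with eBayes without its options. Without any 1 sample and the block its log2 change stayed at -0.56. The authors' deposited table gives -0.65 on the log2 scale for adult Ung (unadjusted p 0.31). Polb, the gap-filling polymerase, had 32 and 28 against 36 and 40 in the adult, and Parg, which removes the chains that PARP1 builds, had 13 and 15 against 20 and 17. At E15.5 Ogg1, the glycosylase for oxidized guanine, had 30, 28 and 34 against 36, 38 and 32, and Xrcc1, the scaffold that PARP1 brings to breaks, had 48, 46 and 46 against 50, 52 and 52.

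The kinases related to ATM and their assembly factors had positive changes in all 6 genes in both models, with medians of 0.28 in embryos and 0.25 in adults and 0 called in either (limma; at an unadjusted p under 0.05 there was 1 in embryos and 0 in adults). Over all tested genes 8226 of 13609 in embryos and 8592 of 14835 in adults were positive. The groups of 4 of the 6 list genes were higher without overlap in each model, beside 19.3% and 29.3% of all tested genes. Tti1, part of the complex that stabilizes newly made ATM, ATR and related kinases, had 62, 51 and 66 in the wild-type embryos and 75, 86 and 71 in the knockouts (log2 0.37, SE 0.17, adjusted p = 0.298, limma). Telo2, its partner, had 27, 20 and 24 against 27, 34 and 30. In the adult Smg1, the kinase of nonsense-mediated decay, had 46 and 53 against 64 and 56, and Tti2 had 8 and 8 against 10 and 10.

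**Figure D5:**
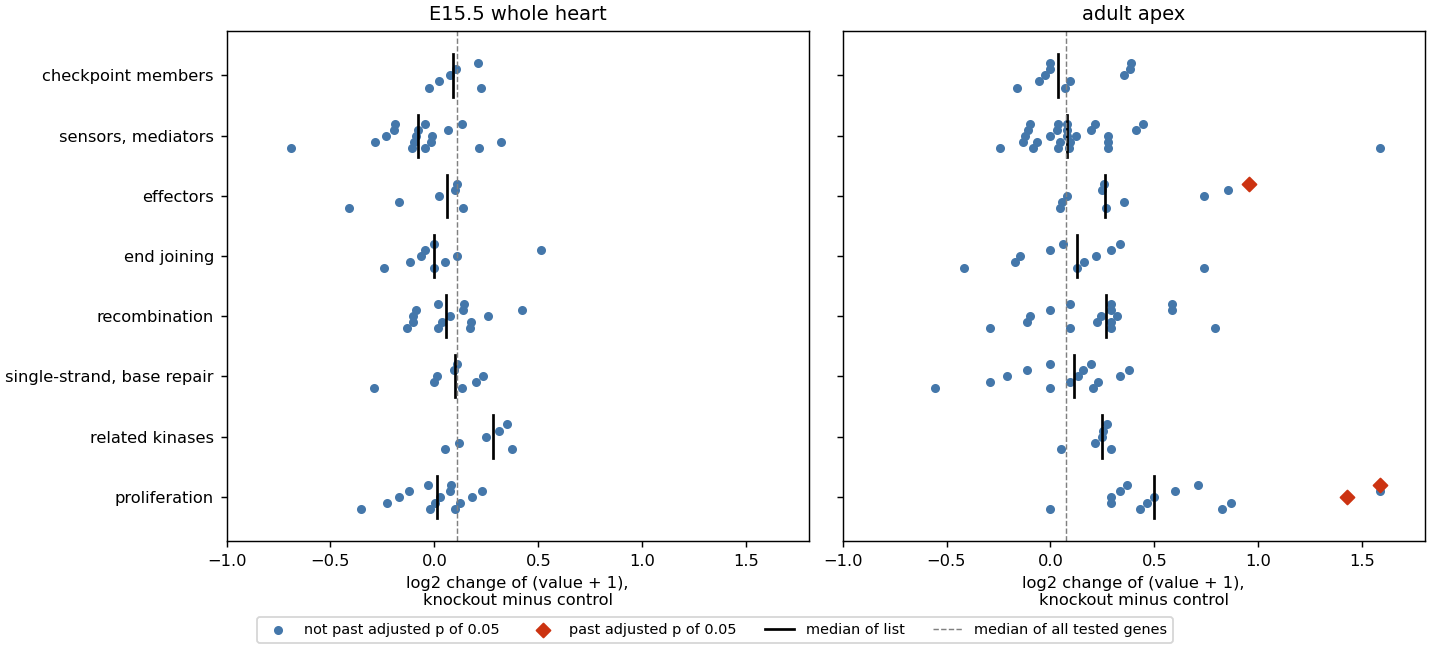
Log2 change of (value + 1), knockout minus control (horizontal axes), of each tested gene in the checkpoint set, the 6 damage-response lists and the proliferation list, embryonic and adult, with the median of each list (black) and of all tested genes (dashed). Diamonds mark the genes past an adjusted p of 0.05, which are Cdkn1a, Mki67 and Top2a, all in the adult.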

How the data were processed

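Total RNA of mouse heart was sequenced after column extraction, per the labels' protocols. HISAT2, HTSeq and the build mm10 are named, without versions, per the submitters' processing notes. The authors deposited 1 table per model with a score per gene and sample, a per-million value rounded to whole numbers; no source used here states the scaling, adjustment or rounding. The deposited tables also hold the authors' mean signal, log2 fold changes and p-values, with column names in the DESeq2 style, per the file headers.

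Same-numbered control and knockout values add to a fixed total within 2 in 99.5% of E15.5 genes and 99.8% of adult genes with a mean of at least 10. Deviations of same-numbered samples are therefore mirrored (correlation across genes -0.82 to -0.80 at E15.5 and -0.81 in the adult), leaving 2 residual degrees of freedom per gene at E15.5 and 1 in the adult. For each model, limma 3.58.1 (R 4.3.3) contrasted the groups on log2(value + 1), with the replicate number as a block, rounding variance (0.0833) added, eBayes with trend and robust options (median prior degrees of freedom 27.54 at E15.5, infinite in the adult) and Benjamini-Hochberg adjustment over all genes that reached 1 in as many samples as a group holds. On simulated data the fit recovered the direction of all changes it called, but false calls made up more than the nominal share of calls in both tables, most in the adult when the spread varied between genes. Values are too few for a permutation test to pass 0.05 (smallest exact 2-sided p 0.1 for 3 against 3, 0.333 for 2 against 2). Coordinates are from GENCODE M21 and sequences from RefSeq, both on GRCm38. Members, lists and fit were chosen with earlier results of these data known. Named in each list are called genes (up to 12 per table) and the 2 largest changes in each direction at a mean of at least 8; other genes were named after their values were seen. Some genes that this rule names are not reported here. Other settings tried were no block, no rounding variance, neither, pseudocounts of 0.5 and 5, no filter, a mean of at least 10, median-of-ratios scaling, eBayes without its options, and each sample left out.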

Additional observations from a re-analysis of the deposited data

How the results depend on the processing

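The count of 0 called checkpoint genes at E15.5 held under all 9 other settings and without any 1 sample. With the block kept at E15.5, leaving out a sample also takes the same-numbered sample of the other group out of the comparison. In the adult it was 1 of 10 in the fit without the block that also lacked rounding variance, beside 1622 of all 14835 tested genes. There Nbn (25 and 25 against 24 and 24) was called with a log2 change of -0.06 (adjusted p = 0.00146, limma). The count was 0 in the other 8 settings. Fits without 1 adult sample and without the block leave 1 sample in a group, so their calls are not counted here. In them the log2 change of Trp53bp1 ranged from 0.21 to 0.50 and that of Rad50 from 0.14 to 0.63. Of the 6 genes in both tables, 0 had a different effect in any setting; with a mean of at least 10 only 4 of them were tested. Small changes turned sign: Prkdc at E15.5 was -0.0375 with median-of-ratios scaling and, leaving out 1 sample, lay between -0.076 and 0.111, Rad50 between -0.0155 and 0.142 and Parp1 between -0.122 and 0.042, while adult Parp1 was 0.0247 without control replicate 2 and 0.0525 without knockout replicate 2.

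Of the 60 other damage-response genes tested at E15.5, 1 was called with no replicate block (Dclre1c, 6, 6 and 6 against 9, 9 and 9, beside 604 of all 13609) and 5 with neither block nor rounding variance (beside 1040). Of 83 in the adult (45 with a mean of at least 10), 12 were called without rounding variance (beside 1130 of all 14835) and 15 with neither (beside 1622). With no replicate block 2 were called (beside 409 of all 14835). It was also 2 with median-of-ratios scaling (beside 496) and with eBayes without its options (beside 610). With a mean of at least 10 it was 2 of the 45, beside 516 of all 8658. The cause was not tested.

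Over all genes at E15.5 the count of 86 (72 higher, 14 lower) became 604 with no replicate block, 0 without rounding variance, 1040 with neither, 46 and 232 with pseudocounts of 0.5 and 5, 601 with no filter, 0 with a mean of at least 10, 19 (12 higher, 7 lower) with median-of-ratios scaling, 0 with eBayes without its options and 213 to 502 without 1 sample. Larp7 kept its log2 change of -1.04 and was not called without rounding variance, with a mean of at least 10 or with eBayes without its options (adjusted p = 0.473, 0.332 and 0.529, limma). The adult count of 488 (347 higher, 141 lower) became 1130 without rounding variance, 1622 with neither, and 829, 1251, 601 and 904 without control replicates 1 and 2 and knockout replicates 1 and 2; with median-of-ratios scaling it was 496 (286 higher, 210 lower). That scaling moved the median gene from 0.11 to 0.04 at E15.5 and from 0.08 to 0.02 in the adult. With 3 adult samples the block leaves no residual degree of freedom, so the settings without a sample also lack the block, were chosen after seeing the data, and assume that the lone sample varies like the other group. Depth is unknown, and rounding limits genes at a few units.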

Other observations

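The change in the knockout varied with the length of the annotated exons of a gene at E15.5. Over 8318 genes with a mean of at least 8, which share the same 6 libraries and their fixed totals, Spearman's rho between exon length and log2 change was 0.259 as a description across genes. With genes split by length into 4 equal bins, the shortest bin (54 to 2712 bases) had a median log2 change of -0.05 and the longest bin (6759 to 123179 bases) one of 0.16. Trp53bp1, with 14164 exon bases, and Prkdc, with 13187, stand in the longest bin, at 0.22 and 0.02, while Nbn, with 2533, stands in the shortest bin, at 0.21. In the adult rho was 0.083 over 9078 genes, and the medians of the shortest and longest bins were 0.06 and 0.11. Between the 2 adult control samples alone, replicate 2 minus replicate 1, the same medians were 0 and 0.08, with rho 0.19. In Trp53bp1, Rad50 and Prkdc this control difference was 17 to 21, 9 to 13 and 6 to 9, and in Atr, with 23629 exon bases, and Atm, with 10338, the 2 controls were equal. What part exon length has in the changes was not tested.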
